A study of Mus musculus with 62 samples.

Results

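The genes described here encode the subunits of the receptors for glutamate and GABA, the main excitatory and inhibitory transmitters of the neocortex. They were chosen by gene symbol from the deposited table: the AMPA (Gria), NMDA (Grin), kainate (Grik) and delta (Grid) subunits, the metabotropic glutamate receptors (Grm), every GABA-A subunit (Gabr) and both GABA-B subunits (Gabbr). The rule found 47 of the 47643 genes, 26 for glutamate and 21 for GABA, and used no measured value. Neocortex RNA came from 62 female mice injected at 2 months of age, in 12 groups. The CAC groups had been given melanoma cells that cause cachexia, a wasting of body mass that accompanies some cancers. The NCAC groups had been given melanoma cells that do not cause it, and the control groups a mock injection. Tissue was taken 2, 4, 6 and 8 weeks after injection, 5 animals to a group and 7 for CAC at 8 weeks. The design text names athymic nude mice and the sample labels C57BL6/J, so the host strain is uncertain here, and a nude host would lack mature T cells in all groups. The labels call the libraries biological replicates.

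AMPA, NMDA and kainate receptors are ion channels built from several subunits that open when glutamate binds, and AMPA and NMDA receptors carry most fast excitatory transmission. Metabotropic glutamate receptors act through G proteins, and GABA-B receptors do the same for GABA. GABA-A receptors are chloride channels of mixed subunits, most often alpha, beta and gamma subunits, and the choice of subunits sets where the receptor sits and which drugs bind it. This balance of excitation and inhibition was measured here only as RNA of the subunits, in TPM, a level scaled for transcript length and to a sum of 1000000 per library.

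Depth, estimated from the smallest steps between low values, was 45.0 to 50.8 M reads per library, and 1 TPM of a transcript with 2000 bases of exon was worth about 28.1 reads. All 12 markers of excitatory cortical neurons and all 12 of inhibitory neurons were measured with a mean of at least 1 TPM, as the tissue label has it. Libraries nevertheless differed in markers of neighbouring tissue. The sum of 8 choroid plexus markers ran from 20.1 to 3104.5 TPM over all libraries. Its medians in CAC, NCAC and mock libraries were 933, 1283 and 183 TPM at 2 weeks and 1064, 1090 and 1543 TPM at 4 weeks. They were 181, 1610 and 1816 TPM at 6 weeks and 162, 1159 and 1015 TPM at 8 weeks. The ranges of the arms overlapped in every week. Mock replicate 5 at 2 weeks held a summed 3848 TPM of 10 hypothalamus and pituitary markers, against a median of 34.2 TPM over all libraries, and the highest thalamus marker sum, 676 TPM. CAC replicate 1 at 4 weeks had the lowest sum of 11 striatum markers, 173 TPM against a median of 1128 TPM. CAC replicate 3 at 8 weeks had the highest sum of 5 erythroid markers, 22527 TPM against a median of 1449 TPM. The calls of members, and the values at 2 weeks that mock replicate 5 moved most, are given with and without these libraries. All libraries of 2 weeks were run on lane 3 and all of 6 and 8 weeks on lane 4, so lane does not differ within those weeks. At 4 weeks all CAC libraries and NCAC replicates 1 to 4 were on lane 3, and NCAC replicate 5 and all mock libraries on lane 4, so the CAC to mock difference of that week and the lane cannot be told apart.

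Receptor genes were abundant, with a mean above 100 TPM for 10 members and above 10 TPM for 34. A mean of at least 1 TPM over all libraries was required for testing, and 40 members of the 14494 genes tested passed it. The 7 that did not were Gabre, Gabra6, Grin3b, Gabrr1, Gabrr3, Gabrp and Grm6, at 0.00235 to 0.622 TPM. Gabbr1, which pairs with Gabbr2 to form the GABA-B receptor, had the highest level, 273 ± 16.0 TPM (SD, n = 62), and Gabbr2 had 148 ± 14.5 TPM. Among AMPA subunits, Gria1 averaged 163 TPM, Gria2, which limits calcium entry through the channel, 121 TPM, Gria3 74.7 TPM and Gria4 50.4 TPM. Grin1, which every NMDA receptor needs, reached 145 TPM and made up 52.9% ± 1.98 of the summed NMDA level. Its glutamate-binding partners followed, with Grin2b at 51.0 TPM, Grin2a at 35.9 TPM, Grin2c at 24.0 TPM and Grin2d at 6.86 TPM.

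**Figure D1:**
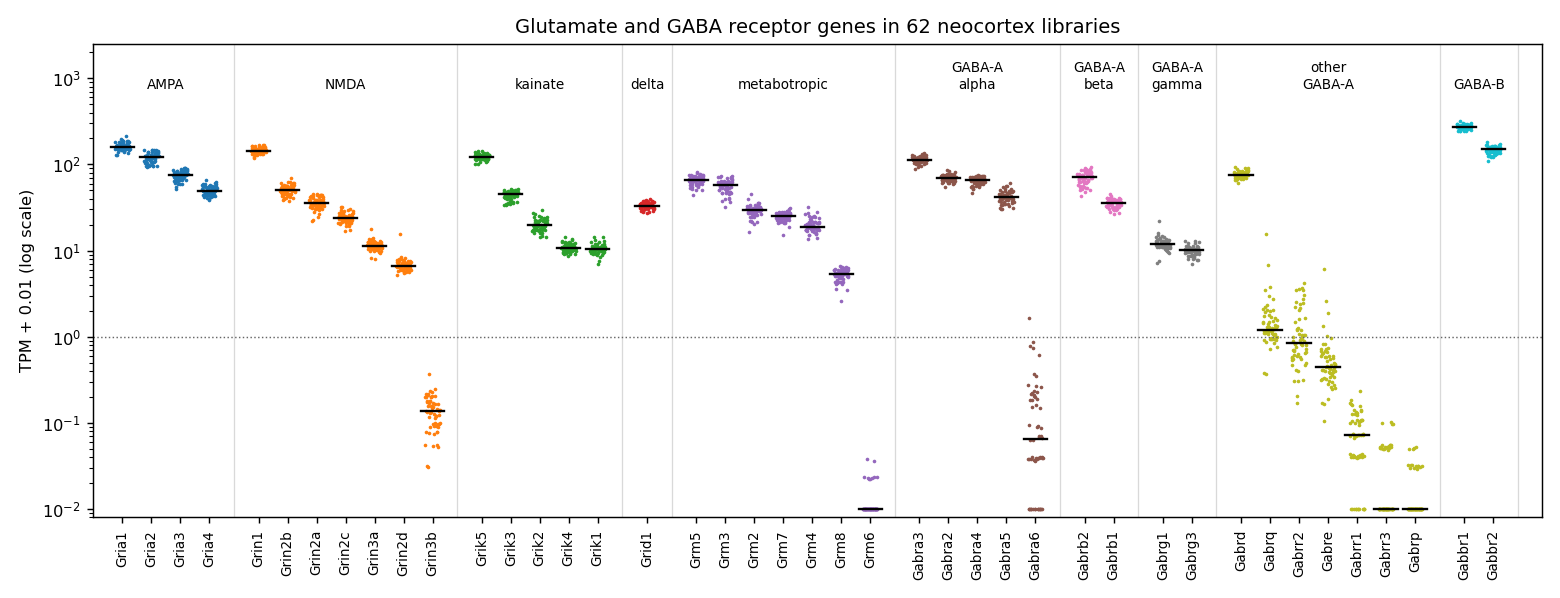
Level of 42 receptor genes in TPM on a log axis, after adding 0.01, by receptor class. Each dot is 1 of the 62 libraries, the black bar is the median and the dotted line marks 1 TPM. Gabbr1 lies highest, and Gabrq, Gabrr2 and Gabre spread more widely between libraries than the abundant subunits.

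Grik5, a kainate subunit that needs a partner from Grik1 to Grik3 to form a channel, made up 59.0% of the summed kainate level at 123 TPM. The delta subunit Grid1 had 33.2 TPM. The metabotropic receptors were led by Grm5, which couples to phospholipase C, at 65.2 TPM and Grm3, which lowers cyclic AMP and is found in astrocytes as well as neurons, at 56.5 TPM. Gabra3, an alpha subunit of GABA-A receptors, averaged 114 TPM. Gabrd, a subunit of receptors outside synapses, had 76.6 TPM. Of the 46 neighbouring pairs in this order of levels, 35 differed by less than 1 SD of their log2 difference between libraries, so the order is fixed only between genes further apart. Grm6 and Gabra6, known from retinal bipolar cells and cerebellar granule cells, were near 0, at medians of 0 and 0.0557 TPM.

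The GABA-A genes lie largely in clusters. On GRCm38, Gabra6 and Gabrb2 share chromosome 11, Gabrg1, Gabra2, Gabra4 and Gabrb1 share chromosome 5, Gabrg3 and Gabra5 share chromosome 7, Gabre, Gabra3 and Gabrq share the X chromosome, and Gabrr1 and Gabrr2 lie side by side on chromosome 4. Gabra4 and Gabrb1 overlap on opposite strands by 196 bases, and Grin2d overlaps Kdelr1 by 5607 bases. The sources used here do not say whether reads were counted by strand, and the split of reads within these pairs is uncertain.

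Tests were made with limma on log2(TPM + 1), in a model of all 12 groups, with p-values adjusted over all 14494 genes (Benjamini-Hochberg), and a gene was called at an adjusted p under 0.05. At 2 weeks, 2 of 40 members were called in CAC against mock, where 4.28% of all genes were called, and 3 in NCAC against mock, where 8.71% were. At 4 weeks no member was called in CAC against mock, where 0.0414% of all genes were, and in limma 4 members had an unadjusted p under 0.05. At 6 weeks 1 member was called in CAC against mock (1.63% of all genes) and 3 in CAC against NCAC (9.65%). At 8 weeks 2 members were called in CAC against mock (8.6%) and 2 in CAC against NCAC (6.02%). The counts of members are close to or below what those shares of all genes give in 40, so they are no result about the members as a group. Counts of members at an unadjusted p, here and below, lack the share over all genes and are no such result either. The calls fell on 7 members, among them Grin1, Gabra4, Grin2c, Grik4, Grm3 and Gabrr2.

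**Figure D2:**
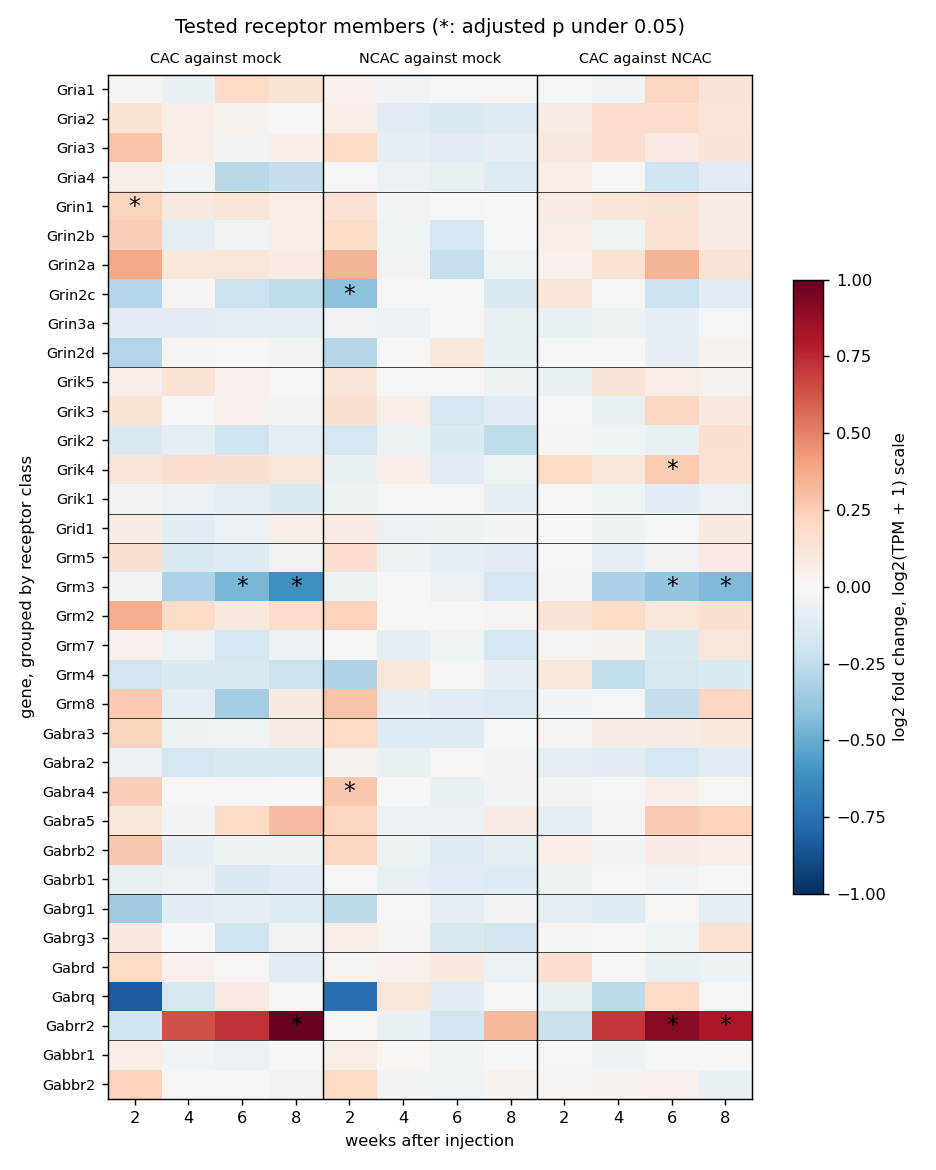
Log2 fold change of 35 of the tested members on the log2(TPM + 1) scale (colour) in the 12 comparisons within a week (columns, by weeks after injection), with rows grouped by receptor class. Stars mark an adjusted p under 0.05, and the colour scale ends at 1, below the 1.14 of Gabrr2 at 8 weeks. Grm3 is blue and Gabrr2 red in CAC against mock at 4, 6 and 8 weeks, and most other members are near white after 2 weeks.

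Grm3 and Gabrr2 were the members called most often, at 6 and 8 weeks of CAC. Their promoter windows, from 250 bases before to 50 bases after the RefSeq start, are printed to show the sequence at their starts. Grm3 lies on the minus strand of chromosome 5 at 9485541 to 9725170, and Gabrr2 on the plus strand of chromosome 4 at 33062999 to 33095865 (GRCm38, GENCODE vM21). The RefSeq window of Grm3 is chr5:9725303-9725602, minus strand, and that of Gabrr2 is chr4:33062862-33063161, plus strand (GRCm38.p6). Both start sites differ from those of the GENCODE models. Capitals mark letters of 3 motifs, which do not overlap in these windows and were searched on both strands. The first was GGGCGG, the GC box bound by Sp1. The next was the CCAAT box. The last was AGAACA, a half-site of the glucocorticoid receptor, which reads TGTTCT on the other strand.
Grm3: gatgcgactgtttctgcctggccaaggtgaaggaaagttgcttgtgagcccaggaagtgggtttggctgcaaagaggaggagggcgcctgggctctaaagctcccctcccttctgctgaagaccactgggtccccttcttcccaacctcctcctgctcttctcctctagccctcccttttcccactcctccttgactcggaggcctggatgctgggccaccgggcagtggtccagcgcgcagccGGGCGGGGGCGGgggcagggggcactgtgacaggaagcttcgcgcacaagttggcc
Gabrr2: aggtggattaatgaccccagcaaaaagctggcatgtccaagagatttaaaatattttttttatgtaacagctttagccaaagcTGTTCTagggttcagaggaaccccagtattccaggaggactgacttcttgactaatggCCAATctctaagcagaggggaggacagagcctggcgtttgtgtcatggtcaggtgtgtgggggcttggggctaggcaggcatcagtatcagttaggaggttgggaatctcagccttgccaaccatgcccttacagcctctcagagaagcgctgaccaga
The Grm3 window held 2 GC boxes, a motif in 35.7% of 32851 RefSeq promoter windows of 300 bases. The Gabrr2 window held 1 CCAAT box, found in 37.4% of those windows, and 1 TGTTCT, found with its reverse in 19.0%. These are matches of letters, with no binding data. The Grm3 window was 63.7% G and C, and the Gabrr2 window 49.3%, against a median of 52.7% over all windows.

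Grm3 fell in CAC neocortex at 6 and 8 weeks. At 2 weeks its levels were 72.1, 58.9, 63.2, 50.0 and 59.7 TPM in CAC, 60.2, 50.4, 71.0, 59.6 and 57.2 TPM in NCAC, and 54.0, 63.7, 73.3, 62.2 and 56.7 TPM in mock neocortex. The 3 groups overlapped, with a log2 fold change of -0.03 ± 0.11 (SE) for CAC against mock (adjusted p = 0.902, limma). At 4 weeks CAC libraries had 37.6, 46.8, 54.9, 46.7 and 53.9 TPM, NCAC libraries 58.0 to 60.6 TPM, and mock libraries 65.1, 58.7, 62.2, 58.8 and 52.2 TPM. Every CAC library then lay below every NCAC library, but neither the value against mock, -0.31 ± 0.11 (adjusted p = 0.261), nor that against NCAC, -0.31 ± 0.11 (adjusted p = 0.166), was called. Without CAC replicate 5 the value against NCAC was called (adjusted p = 0.0432). With lane as a term, which rests on NCAC replicate 5 alone, the value of Grm3 against mock at 4 weeks was -0.35.

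At 6 weeks Grm3 had 32.0, 39.4, 54.2, 46.4 and 47.3 TPM in CAC, 62.3, 55.7, 69.3, 49.2 and 50.7 TPM in NCAC, and 56.2, 53.2, 63.2, 64.7 and 61.0 TPM in mock libraries. A single CAC library, replicate 3, reached into the mock range. The log2 fold change was -0.45 ± 0.11 against mock (adjusted p = 0.0206) and -0.39 ± 0.11 against NCAC (adjusted p = 0.0237). Leaving out any 1 of CAC replicates 1 and 2 and mock replicates 3 and 4 ended the call against mock, with adjusted p of up to 0.201. With 3 glial marker scores as terms, an alternative added after the data were seen, the values at 6 weeks were -0.28 against mock (adjusted p = 0.466) and -0.18 against NCAC (adjusted p = 0.539), neither called. Oligodendrocyte markers moved at 6 weeks, with 2 of 10 lower in CAC against mock and 6 of 10 lower in CAC against NCAC. The astrocyte markers Aldoc at 0.31 and Gjb6 at 0.54 were higher in CAC against mock. Against NCAC the called astrocyte markers included Gjb6 at 0.57, Aldoc at 0.23 and Aqp4 at -0.43. The precursor markers C1ql1 at -0.57 and Olig1 at -0.37 were lower against NCAC. The part of these markers in the Grm3 values was not tested further. With 6 regional and blood marker scores as terms neither was called either, and in fits of only the groups compared the adjusted p were 0.103 and 0.102. At 8 weeks the 7 CAC libraries ran from 36.5 to 52.9 TPM with a median of 44.8 TPM, NCAC libraries had 62.7, 71.3, 54.1, 46.2 and 70.2 TPM, and mock libraries 69.4, 65.8, 73.5, 67.1 and 63.2 TPM. No CAC library overlapped the mock range, while NCAC replicate 4 lay within the CAC range.

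The decrease at 8 weeks was -0.61 ± 0.10 on the log2 scale against mock (0.654-fold, adjusted p = 8.02e-05) and -0.44 ± 0.10 against NCAC (0.735-fold, adjusted p = 0.00525). Against mock it was called in all 22 alternatives, none of which had microglia or hippocampus marker scores as terms, with values of -0.66 to -0.48. Against NCAC it was called in 20 of 22, and was lost in a fit of only the groups compared (adjusted p = 0.0598) and with the 3 glial scores. The CAC to mock difference changed by -0.58 ± 0.15 between 2 and 8 weeks (adjusted p = 0.0382), called in 14 of 32 alternatives and in 10 of the 22 that left out 1 library. That call was lost with no filter on level, with replicate number as a block and with only the groups compared. It was also lost with the glial, excitatory or 6 other marker scores as terms, and without mock replicate 5 at 2 weeks. NCAC against mock was not called for Grm3 in any week, with -0.17 ± 0.11 at 8 weeks (95% interval -0.39 to 0.06). Whether fewer cells of a type or less RNA per cell gave a lower level cannot be told apart in bulk tissue.

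**Figure D3:**
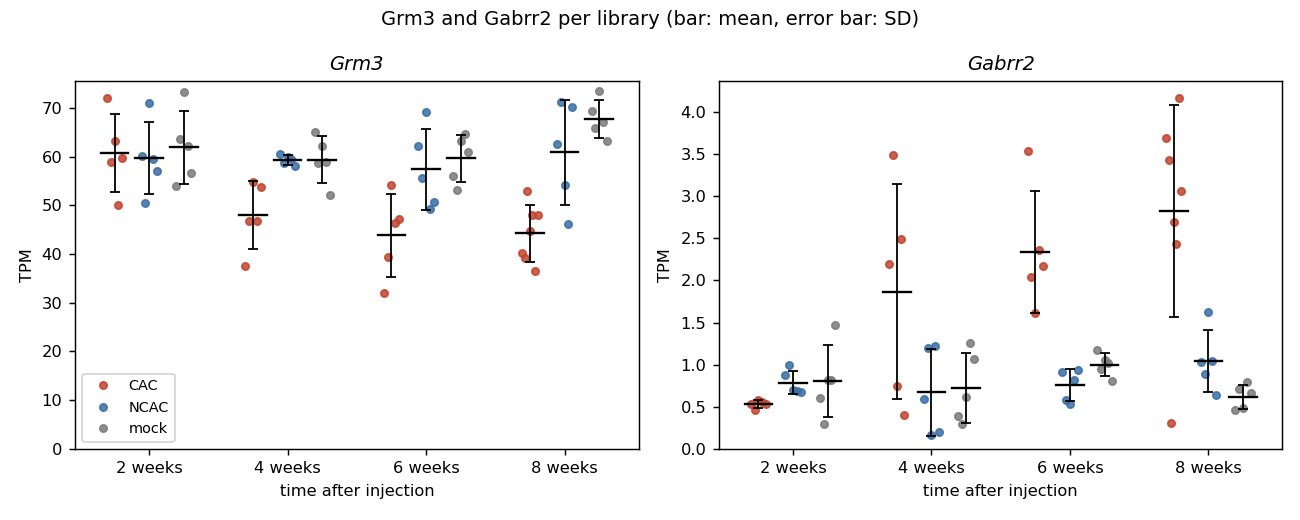
Level of Grm3 (left) and Gabrr2 (right) in TPM in each library, by weeks after injection, with CAC in red, NCAC in blue and mock in grey. Dots are libraries, bars are means and error bars SD. All 7 CAC libraries at 8 weeks lie below the 5 mock libraries for Grm3, and all but 1 lie above them for Gabrr2.

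Gabrr2, which encodes the rho2 subunit of a GABA-gated chloride channel best known from the retina, was low in all groups and rose in CAC neocortex. It averaged 0.80 TPM over the 40 NCAC and mock libraries, so it passed the 1 TPM filter only through CAC libraries. At 2 weeks Gabrr2 had 0.529, 0.459, 0.577, 0.559 and 0.536 TPM in CAC, 0.874, 0.991, 0.700, 0.691 and 0.677 TPM in NCAC, and 0.608, 0.300, 0.815, 0.815 and 1.47 TPM in mock libraries. CAC libraries lay below NCAC libraries without a call (-0.22 ± 0.24, adjusted p = 0.998, limma). At 4 weeks its CAC levels were 2.20, 3.49, 0.749, 2.49 and 0.407 TPM, against 0.595, 1.19, 0.158, 1.22 and 0.194 TPM in NCAC and 0.390, 0.300, 0.616, 1.25 and 1.06 TPM in mock libraries. Of the CAC libraries 3 lay above all others of that week and 2 lay among them. The values of 0.64 ± 0.24 against mock (adjusted p = 0.266) and 0.71 ± 0.24 against NCAC (adjusted p = 0.139) were not called, and both were called without CAC replicate 5 (adjusted p = 0.0285 and 0.0126). With lane as a term the value of Gabrr2 against mock at 4 weeks was 0.10.

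At 6 weeks Gabrr2 had 3.54, 2.04, 1.61, 2.36 and 2.17 TPM in CAC, 0.911, 0.577, 0.538, 0.819 and 0.938 TPM in NCAC, and 1.18, 0.943, 1.05, 1.02 and 0.801 TPM in mock libraries. The CAC libraries did not overlap either group. The difference from NCAC was 0.91 ± 0.24 (adjusted p = 0.0138) and was not called without CAC replicate 1 (adjusted p = 0.0613), and that from mock was 0.72 ± 0.24 (adjusted p = 0.0995). With the 3 glial scores the difference from NCAC was 0.41 (adjusted p = 0.488), and with the 6 other marker scores 0.72 (adjusted p = 0.0746). At 8 weeks the CAC libraries ran from 0.308 to 4.17 TPM with a median of 3.06 TPM, NCAC libraries had 1.03, 0.883, 1.62, 1.05 and 0.634 TPM, and mock libraries 0.461, 0.711, 0.481, 0.788 and 0.658 TPM. The CAC library at 0.308 TPM was replicate 3, which had the most erythroid RNA, and the other 6 had 2.43 TPM or more.

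Gabrr2 was higher at 8 weeks by 1.14 ± 0.22 in CAC against mock (2.21-fold, adjusted p = 0.00037) and by 0.82 ± 0.22 in CAC against NCAC (adjusted p = 0.0147). The value against mock was called in all 22 alternatives, none of which had microglia or hippocampus marker scores as terms. It was 0.99 to 1.79 in these, and 1.38 without CAC replicate 3. Because Gabrr2 passed the filter through its CAC libraries, its tests of CAC are not independent of the filter, and the fit with no filter on level bears on them. There its adjusted p against mock at 8 weeks was 0.000714 (limma). In that fit Gabrr2 was also called against NCAC at 6 and 8 weeks and in the change between 2 and 8 weeks. Against NCAC at 8 weeks Gabrr2 was called in 16 of 22 alternatives. That call was lost without CAC replicate 6 or NCAC replicate 5 (adjusted p of up to 0.0671) and with a pseudocount of 0.1 TPM. It was also lost with replicate number as a block, with the 3 glial scores and in a fit of only the groups compared (adjusted p = 0.132). The CAC to mock difference was larger at 8 than at 2 weeks, by 1.34 ± 0.32 (adjusted p = 0.0226), called in 24 of 32 alternatives and in 20 of the 22 that left out 1 library. That call was lost with a pseudocount of 0.1 TPM, with replicate number as a block and with only the groups compared. It was also lost with the glial, excitatory or 6 other marker scores as terms, and without mock replicate 5 at 2 weeks. A pseudocount of 1 TPM understates the change of a gene at this level, and with 0.1 TPM the value at 8 weeks against mock was 1.79. At this length 1 TPM of Gabrr2 was worth about 29.6 reads. The neighbouring gene Gabrr1 stayed at 0 to 0.222 TPM in all libraries and was not tested.

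In that change between 2 and 8 weeks 2 of 40 members were called, Gabrr2 and Grm3. Of all genes 1.32% were called, a smaller share, but 2 genes are no result about the members as a group. In CAC at 8 weeks against mock, 2 of 10 astrocyte markers were higher and 2 lower, among them Gjb6, a gap junction protein, at 0.57 and Aqp4, the water channel of astrocyte endfeet, at -0.71. The 10 markers summed to 2241 to 2657 TPM in CAC and 2324 to 2985 TPM in mock libraries. Of 10 oligodendrocyte markers 3 were lower, with sums of 1720 to 2547 TPM in CAC and 2126 to 2579 TPM in mock libraries. Of 8 microglia markers 5 were lower, with sums of 280 to 385 TPM in CAC and 400 to 595 TPM in mock libraries. Excitatory neuron markers had no call and summed to 2795 to 3296 TPM in CAC and 2738 to 2926 TPM in mock libraries. Of 12 inhibitory neuron markers 2 were lower, the neuropeptides Npy at -0.31 and Sst at -0.29, with sums of 1786 to 2116 TPM in CAC and 1994 to 2273 TPM in mock libraries. Of 7 tested hippocampus markers 3 were higher, Spink8 at 1.29, Wfs1 at 0.39 and Bok at 0.35, with sums of 296 to 386 TPM in CAC and 257 to 288 TPM in mock libraries. No marker of these lists was at 0 in all libraries. With the 3 glial scores (astrocyte, oligodendrocyte precursor and oligodendrocyte) as terms, Grm3 was called in CAC against mock at 8 weeks at -0.48 (adjusted p = 0.00482) and Gabrr2 at 1.00 (adjusted p = 0.00374). In CAC against NCAC at 8 weeks neither was called with these terms, Grm3 at -0.27 (adjusted p = 0.311) and Gabrr2 at 0.50 (adjusted p = 0.37). The oligodendrocyte markers summed to 2297 to 2852 TPM in those NCAC libraries.

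At 2 weeks the calls described here fell on Grin1, Gabra4 and Grin2c, against mock libraries only. Grin1 had 145, 163, 153, 131 and 162 TPM in CAC, 149, 141, 144, 141 and 138 TPM in NCAC, and 119, 123, 133, 142 and 129 TPM in mock libraries. It was higher by 0.22 ± 0.06 in CAC against mock (adjusted p = 0.0191), with 1 CAC library inside the mock range, and 0.15 ± 0.06 for NCAC against mock was not called (adjusted p = 0.0858).

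Gabra4, the alpha subunit that joins Gabrd in receptors outside synapses, had 66.4, 68.7, 56.5, 65.7 and 71.5 TPM in NCAC and 47.0, 52.3, 54.7, 51.5 and 66.8 TPM in mock libraries at 2 weeks. It was called in NCAC against mock at 0.27 ± 0.08 (adjusted p = 0.0327), and its 0.25 ± 0.08 in CAC against mock was not (adjusted p = 0.0647). Grin2c, an NMDA subunit of which receptors with a weaker magnesium block are built, went the other way. It had 20.8, 20.9, 24.6, 23.9 and 20.1 TPM in NCAC and 29.9, 25.8, 32.5, 28.3 and 32.3 TPM in mock libraries, with no overlap, and its log2 fold change in NCAC was -0.41 ± 0.10 (adjusted p = 0.0108). In CAC libraries Grin2c had 20.8 to 27.4 TPM, and -0.29 ± 0.10 against mock was not called (adjusted p = 0.0664). CAC and NCAC share these mock libraries, so their 2 sets of values are not independent.

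Of the 40 tested members 22 had their lowest group mean in mock at 2 weeks, and 20 did when mock replicate 5 was left out. The highest group mean was in CAC at 8 weeks for 13 members and in mock at 8 weeks for 13. Such counts were not made over all genes tested and are no result about the members as a group. Weeks 2 and 8 were run on different lanes, so week and lane cannot be told apart in these rankings. In CAC against NCAC at 2 weeks 0% of all genes and no member were called, and in limma 2 members had an unadjusted p under 0.05. These were Gabrd, at 0.16 ± 0.07, and Grik4, at 0.19 ± 0.08 (adjusted p = 0.998 for both). Gabrd had 81.0, 78.1, 77.9, 73.7 and 93.0 TPM in CAC and 66.7, 70.5, 75.0, 74.3 and 73.3 TPM in NCAC libraries, which overlapped. Grik4 had 10.7, 11.1, 12.4, 10.8 and 12.8 TPM in CAC and 10.4, 9.55, 10.5, 9.46 and 10.1 TPM in NCAC libraries, which did not. Markers moved with the calls at 2 weeks. Of 12 excitatory cortical neuron markers 4 were higher in CAC against mock and 4 in NCAC against mock, with medians of 0.41 and 0.37 on the log2 scale. They summed to 2683 to 3231 TPM in CAC, 2483 to 3001 TPM in NCAC and 1684 to 2947 TPM in mock libraries, and the lowest of these was mock replicate 5. Without that library 1 marker was higher in each comparison, with medians of 0.25 in both. Of 10 astrocyte markers none was called, and their medians were -0.17 in both comparisons. They summed to 2373 to 2598 TPM in CAC, 2293 to 2755 TPM in NCAC and 2663 to 2882 TPM in mock libraries, so every mock library lay above every CAC library. Cspg4, a marker of oligodendrocyte precursors, was lower at -0.29 in CAC and -0.36 in NCAC. With the score of the excitatory markers or the 3 glial scores as terms, alternatives added after the data were seen, no member was called in CAC or NCAC against mock at 2 weeks. Thalamus markers had 2 lower calls of 9 tested in NCAC against mock, and none without mock replicate 5. Without that library no precursor marker was called in CAC, and 1 was lower in NCAC. Of 8 choroid plexus markers, Kl at 1.35 and Kcne2 at 1.22 were higher in NCAC against mock, and 1 marker was without that library. The part of these differences in the receptor values was not tested further.

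**Figure D4:**
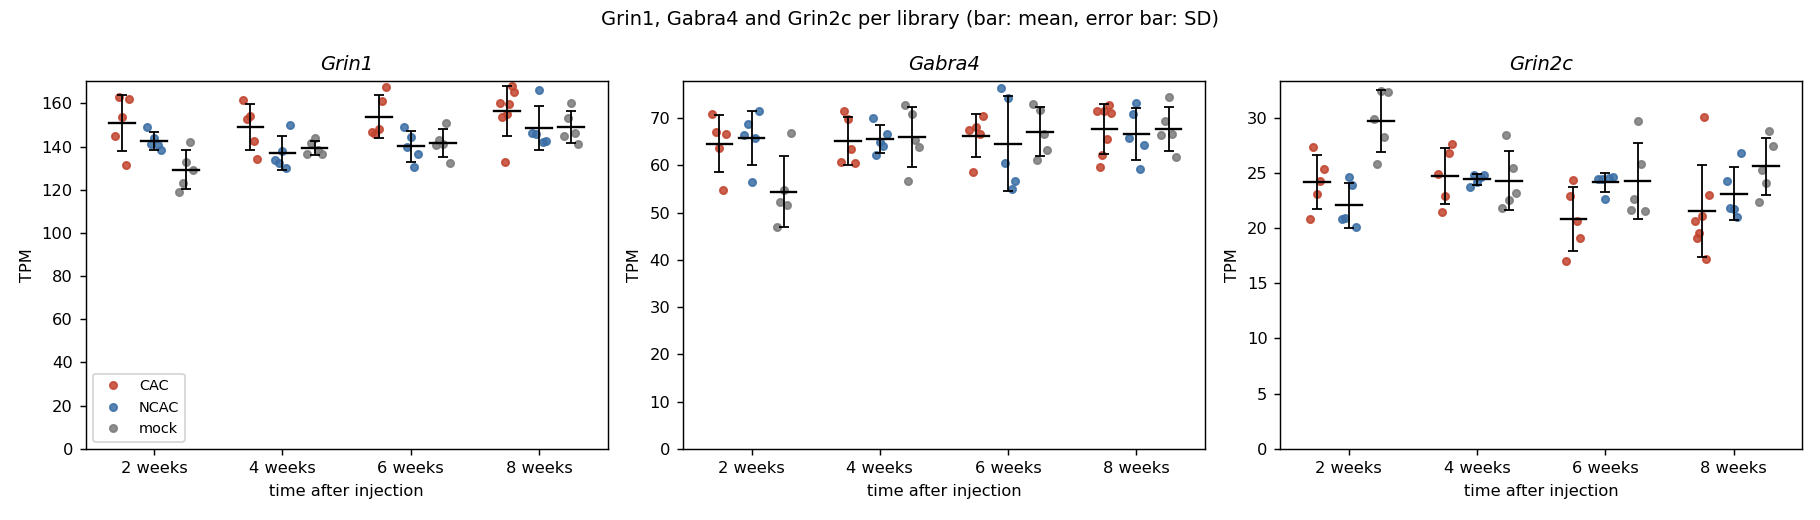
Levels of Grin1, Gabra4 and Grin2c in TPM in each library, by weeks after injection, with CAC in red, NCAC in blue and mock in grey. Dots are libraries, bars are means and error bars SD. Mock at 2 weeks has the lowest mean of Grin1 and Gabra4 and the highest mean of Grin2c among the 12 groups.

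Some of the 2 week calls depended on single libraries. Grin1 in CAC against mock was called in 7 of 10 fits that left out 1 library, and Gabra4 in NCAC against mock in 3. Grin2c in NCAC against mock was called in all 10. Without the 3 libraries that stood apart, Grin1 and Gabra4 were called in CAC against mock, and Gabra4 and Grin2c in NCAC against mock. None of these 3 genes was called in a later week, except Grin2c at 8 weeks with 6 marker scores as terms (-0.28, adjusted p = 0.0209). At 8 weeks, in CAC against mock, Grin1 was at 0.07 ± 0.05, Gabra4 at -0.00 ± 0.08 and Grin2c at -0.25 ± 0.09 (adjusted p = 0.0667).

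Grik4, a kainate subunit that, like Grik5, needs a partner, was called in CAC against NCAC at 6 weeks. It had 12.1, 11.4, 10.9, 12.7 and 12.2 TPM in CAC and 9.46, 9.20, 10.7, 9.67 and 9.89 TPM in NCAC libraries, with no overlap and a log2 fold change of 0.25 ± 0.08 (adjusted p = 0.0448). Mock libraries of that week had 11.0, 10.2, 11.5, 9.78 and 10.4 TPM, overlapping both groups, and neither comparison with mock was called. The call held in 3 of 10 fits that left out 1 library. With TMM scaling of the TPM values it was lost, and Gabrr2 at 0.86 then stood beside Grm3 at -0.48, Gria4 at -0.28 and Gabra2 at -0.25, so 1 of 4 called members was higher, against 2 of 3 in the values as deposited.

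Most other members stayed close to mock in CAC at 8 weeks. In CAC against mock at 8 weeks, 36 of 40 tested members had a 95% interval within 0.5 log2 units of 0. The 4 outside it were Grm3, Gabrr2, Gabra5 and Gabrq. The median log2 fold change over the 40 members was -0.03, against 0.02 over all genes tested. Abundant members of the classes were not called: Gria1 was at 0.14 ± 0.08, Grin1 as above, Grik5 at -0.01 ± 0.06, Grid1 at 0.07 ± 0.07, Grm5 at -0.04 ± 0.10, Gabrd at -0.11 ± 0.07 and Gabbr1 at -0.00 ± 0.05. For Gabbr1 the 95% interval ran from -0.10 to 0.10. In NCAC against mock at 8 weeks 37 of 40 members had an interval within 0.5 log2 units of 0, so that count does not mark CAC. The share of all genes with such an interval was not counted.

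Some members were near the threshold. Gria4 was at -0.24 ± 0.09 in CAC against mock at 8 weeks (adjusted p = 0.0924) and Gabra5, an alpha subunit of receptors outside synapses, at 0.31 ± 0.12 (adjusted p = 0.0852). Both were called without the 3 libraries that stood apart, at -0.25 (adjusted p = 0.0378) and 0.35 (adjusted p = 0.0316), which gave 4 called members, 2 of them higher. Grm2, which forms group II of the metabotropic receptors with Grm3, was at 0.17 ± 0.12 in CAC against mock at 8 weeks (adjusted p = 0.408), while Grm3 was at -0.61. The difference between the 2 genes was not tested.

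NCAC against mock gave no called member and 0% of all genes at 4, 6 and 8 weeks, and in limma 0 members had an unadjusted p under 0.05 in any of these weeks. The lowest p at 4 weeks belonged to Gabra3. It had 109, 105, 110, 94.0 and 106 TPM in NCAC and 122, 112, 123, 106 and 108 TPM in mock libraries, at -0.12 ± 0.07 (adjusted p = 1). The groups overlapped.

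At 6 weeks the lowest p belonged to Grin2a, the NMDA subunit that rises as cortex matures, and to the kainate subunit Grik3. Grin2a had 33.0, 31.6, 34.2, 24.4 and 26.6 TPM in NCAC and 41.8, 29.7, 35.4, 38.6 and 30.8 TPM in mock libraries, at -0.23 ± 0.12 (adjusted p = 0.662). Grik3 had 47.5, 36.8, 46.8, 36.1 and 36.7 TPM in NCAC and 44.7, 44.2, 48.4, 47.8 and 42.7 TPM in mock libraries, at -0.17 ± 0.09. In both genes the groups overlapped. At 8 weeks Grik2 had 19.5, 21.5, 17.3, 14.4 and 21.3 TPM in NCAC and 21.1, 23.7, 24.2, 20.7 and 22.4 TPM in mock libraries, at -0.25 ± 0.13 (adjusted p = 0.896). Gabrg3 had 9.83, 11.3, 7.82, 7.68 and 9.68 TPM in NCAC and 10.8, 10.9, 12.5, 9.23 and 9.51 TPM in mock libraries, at -0.18 ± 0.10. Again both overlapped. Medians over the 40 members were -0.07 at 6 weeks and -0.05 at 8 weeks.

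No member was called in CAC against NCAC at 4 weeks, where 0.0069% of all genes were, and in limma 4 members had an unadjusted p under 0.05, led by Gabrr2 and Grm3. The change of the NCAC to mock difference between 2 and 8 weeks gave no call among members or all genes (0%), and in limma 7 members had an unadjusted p under 0.05. Among them was Gabra4, at -0.30 ± 0.12 (adjusted p = 0.381), which had 65.7, 70.8, 73.2, 59.2 and 64.3 TPM in NCAC and 66.4, 69.3, 74.4, 66.6 and 61.8 TPM in mock libraries at 8 weeks, which overlapped.

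Between mock groups at 8 and 4 weeks 0% of all genes and no member were called, and in limma 2 members had an unadjusted p under 0.05. Gabrd had 82.4, 86.9, 91.8, 84.2 and 75.4 TPM at 8 weeks and 82.2, 72.0, 69.9, 72.5 and 72.7 TPM at 4 weeks, at 0.18 ± 0.07 (adjusted p = 0.281). Grik3 had 45.9, 46.4, 51.5, 48.4 and 46.3 TPM at 8 weeks and 40.8, 37.8, 46.7, 47.2 and 35.0 TPM at 4 weeks, at 0.20 ± 0.09. Both genes overlapped between the ages.

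The low GABA-A subunits had their highest values in single libraries. Gabrq, the theta subunit, had 15.7 TPM in mock replicate 5 at 2 weeks and 6.78 TPM in NCAC replicate 1 at 4 weeks, against a median of 1.20 TPM over all libraries. Gabre, the epsilon subunit and a neighbour of Gabrq on the X chromosome, had 6.13 and 2.60 TPM in the same 2 libraries, against a median of 0.437 TPM. These libraries had the highest and the second highest hypothalamus and pituitary marker sums, 3848 and 437 TPM, and CAC replicate 1 at 6 weeks came next with 435 TPM. Grin2d at 15.6 TPM and Grm4 at 32.2 TPM also had their highest values in that mock library. Gabrq was at -0.84 ± 0.33 in CAC against mock at 2 weeks (adjusted p = 0.125) and was not called. Without mock replicate 5 it was at -0.31 ± 0.28 (adjusted p = 0.546). Without mock replicate 3 or 4, with replicate 5 kept, Gabrq was called at -1.11 (adjusted p = 0.0438) and -1.06 (adjusted p = 0.0475). Gabra6, the cerebellar subunit, had its highest value, 1.66 TPM, in CAC replicate 5 at 2 weeks.

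The mix of subunits within a class was compared by the log2 ratio of 2 members in each library, with exact two-sided permutation tests over libraries, adjusted over 36 tests. Of these 36, 6 had an unadjusted p under 0.05 and none had an adjusted p under 0.05. The smallest p the design allows was 0.00794 for 5 against 5 libraries and 0.00253 for 7 against 5. After adjustment over 36 tests, a single ratio at either value could not be called. The lack of calls therefore does not show that the mix was unchanged. The ratio of Grin2a to Grin2b at 6 weeks was -0.42 ± 0.06 in CAC, -0.62 ± 0.06 in NCAC and -0.56 ± 0.04 in mock libraries (SD, n = 5 each). All 5 CAC libraries lay above all 10 others, and both permutation tests gave the smallest p, 0.00794, with an adjusted p of 0.143. The ratio of Gria1 to Gria2 at 8 weeks was 0.41 ± 0.12 in CAC (n = 7) and 0.27 ± 0.07 in mock libraries (n = 5), with an exact permutation p of 0.0202 and an adjusted p of 0.143. A negative ratio of Grin2a to Grin2b means a lower level of Grin2a.

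Genes that work with these receptors were counted from lists. In CAC against mock at 8 weeks, where 8.6% of all genes were called, 2 of 21 AMPA receptor auxiliary and clustering genes were called: Prrt2, a presynaptic membrane protein, was higher at 0.35 and Nptx2, a secreted pentraxin that gathers AMPA receptors, was lower at -0.68. Of 14 genes of glutamate supply and uptake 2 were higher and 4 lower. The lower ones included the glutamine transporter Slc38a3 at -0.49, the neutral amino acid transporter Slc1a4 at -0.22 and the glutaminase Gls2 at -0.36. Of 18 genes of the GABA synapse scaffold and auxiliary list 2 were higher and none lower, Kctd8, an auxiliary subunit of the GABA-B receptor, at 0.40 and Maf1, known mainly as a repressor of RNA polymerase III, at 0.23. None of 27 glutamate synapse scaffold genes, 10 tested genes of GABA supply and uptake or 3 tested glycine receptor genes was called. Their median log2 fold changes were -0.03, 0.02 and -0.01, against 0.02 over all genes tested.

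At 2 weeks 4.28% of all genes were called in CAC against mock and 8.71% in NCAC against mock. Of 21 AMPA auxiliary genes 5 were higher in CAC against mock and none lower, among them Prrt2 at 0.36, Cacng3, an auxiliary subunit that traffics AMPA receptors, at 0.32 and Nptx1 at 0.46. In NCAC against mock 4 were higher, among them Prrt2 at 0.36, Cacng3 at 0.33 and Cnih3 at 0.36. Without mock replicate 5, which had the lowest excitatory marker sum, 1 of the 21 was called in CAC and 2 in NCAC, where 1.21% and 5.54% of all genes were. The scaffold genes Dlgap1 and Dlg3 were higher in both, at 0.30 and 0.22 in CAC and at 0.23 and 0.27 in NCAC. Slc17a7, the vesicular glutamate transporter of cortical excitatory neurons and itself one of the 12 markers, was higher at 0.43 in CAC and 0.46 in NCAC. Glud1, a glutamate dehydrogenase, was lower at -0.14 in CAC against mock. In NCAC against mock the GABA transporter Slc6a11 was lower at -0.54 and Iqsec3, a scaffold gene of the GABA synapse, at -0.33. Without mock replicate 5 none of 27 glutamate scaffold genes was called in CAC, and 2 were higher in NCAC. No glutamate supply gene was then lower in CAC, and no GABA supply gene was called in NCAC. The calls of Glud1 and Slc6a11 were thus lost, as were those of Dlgap1 and Dlg3 in CAC. Of 18 GABA synapse scaffold genes 1 was then lower and 1 higher in NCAC. Summed over all 47 members the level was 2496 ± 167 TPM in CAC, 2450 ± 119 TPM in NCAC and 2273 ± 117 TPM in mock libraries at 2 weeks (2235 ± 91.5 TPM, n = 4, without mock replicate 5), and 2569 ± 124 TPM, 2511 ± 182 TPM and 2584 ± 164 TPM in CAC, NCAC and mock libraries at 8 weeks.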

How the data were processed

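The authors deposited a table of TPM values for 47643 genes in 62 libraries, and per the labels' protocols the libraries came from Trizol RNA with a stranded poly(A) kit on an Illumina instrument. That text also names LLC cells and 3 weeks, which match none of these groups. Per the submitters' processing notes, mm10 was the genome build. No label or header names an aligner, an annotation or a strand setting. Every TPM column sums to 1000000, so depth (45.0 to 50.8 M reads) was inferred from the spacing of low values, of which 86.2% of 205842 were whole within 0.05 reads. No 2 libraries held identical values. Counting error is smallest for abundant members.

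The 14494 genes averaging 1 TPM or more entered the tests on log2(TPM + 1) with limma 3.58.1 in R 4.3.3, in a model of 12 groups with 50 residual degrees of freedom and a variance trend, with 15 comparisons. The text names, by a rule, up to 6 called members per comparison with the lowest p (or the 2 lowest where none was called), the most abundant member of each class, and up to 3 called genes of each list. Members outside this rule, such as Gria4, Gabra5, Gabrq and Grm2, were named after their values were seen. Results of 5 members are not reported here, though they stay in the counts over members and in the fit. The members, lists and libraries that stood apart were chosen with earlier results of these data known. Alternatives were a pseudocount of 0.1 TPM, no filter, TMM scaling, a replicate block, only the groups compared, lane at 4 weeks, 6 marker scores, 3 libraries left out, robust moderation and each library left out, and, added after the data were seen, glial or excitatory neuron marker scores. The 6 marker scores were those of choroid plexus, striatum, thalamus, olfactory bulb, hypothalamus with pituitary, and erythroid cells. No score of microglia or hippocampus markers was used as a term. The fit was tested on simulated data. Sequences are from RefSeq, which held promoters of 32 of the 47 members, and all 47 matched GENCODE vM21.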

Additional observations from a re-analysis of the deposited data

Results flagged for a closer look

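Of 144 checks of 12 receptor genes in 12 groups, 9 found a library far from the rest of its group (Dixon's test at 95%), and chance alone flags about 5% of groups. NCAC replicate 3 at 2 weeks stood low for Gria1, at 127 TPM. Grin1 was low in CAC replicate 3 at 8 weeks, at 133 TPM, and stood apart in NCAC replicate 3 at 8 weeks, at 166.1 TPM. Gabbr1 stood apart at 318.4 TPM in mock replicate 5 at 2 weeks, Gria1 at 183.5 TPM in CAC replicate 2 at 4 weeks, and Grik5 at 134.6 TPM in NCAC replicate 5 at 6 weeks. Grin2c stood apart at 22.63 TPM in NCAC replicate 3 at 6 weeks. Gabrd did so at 82.25 TPM in mock replicate 1 at 4 weeks and at 70.24 TPM in NCAC replicate 1 at 8 weeks.

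The difference between CAC and mock changed between 2 and 8 weeks by 1.343 on the log2 scale for Gabrr2 and by -0.5835 for Grm3, each past the threshold in a test of the change itself (limma, adjusted p = 0.0226 and 0.0382). Both calls were lost without mock replicate 5 at 2 weeks. When 1 library was left out, Gabrr2 was called in 20 of 22 fits and Grm3 in 10.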

How the results depend on the processing

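The counts of called members and of called subunit ratios were recomputed. Under other settings 32 differed from the reported one by more than 1.5 times and 123 did not. All 32 fell in comparisons that had a called member. The 123 include every count of the comparisons without a called member and of the ratios, which stayed at 0 and say little about stability. When 1 library was left out, 39 did and 199 did not. These 199 include 62 counts of called ratios, which were 0 every time. They also include the counts of NCAC against mock at 4, 6 and 8 weeks, which were 0 every time too. In CAC against mock at 2 weeks (2 members) the count was 1 with no filter, 5 with TMM scaling, 4 with the replicate block, and 0 with only the groups compared, 6 marker scores, 3 glial scores or the excitatory score. In NCAC against mock at 2 weeks (3) it was 1 with no filter, 5 with TMM, and 0 with only the groups compared or any of these scores. In CAC against mock at 6 weeks (1) it was 2 with TMM or without the 3 libraries that stood apart, and 0 with 6 marker or 3 glial scores. In CAC against NCAC at 6 weeks (3) it was 0 with 6 marker or 3 glial scores. In CAC against mock at 8 weeks (2) it was 5 with 6 marker scores and 4 without the 3 libraries. In CAC against NCAC at 8 weeks (2) it was 1 with a pseudocount of 0.1 TPM or the replicate block, and 0 with only the groups compared or 3 glial scores. In the change between 2 and 8 weeks of CAC (2) it was 1 with a pseudocount of 0.1 TPM or no filter, and 0 with the replicate block, only the groups compared, or any of these scores. The cause was not tested.

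Leaving out 1 library at a time gave 0 to 9 and 1 to 6 members in CAC and NCAC against mock at 2 weeks, 0 to 1 and 0 to 2 in CAC against mock and NCAC at 4 weeks, 0 to 2 and 0 to 5 at 6 weeks, 2 to 3 and 1 to 2 at 8 weeks, and 0 to 3 in the change of CAC. The 2 week count of CAC was 9 without CAC replicate 4 and 0 without CAC replicate 2. At 6 weeks the count against NCAC was 0 without CAC replicate 1 and 5 without CAC replicate 2, and the change of CAC gave 0 without mock replicate 5 at 2 weeks or mock replicate 3 at 8 weeks. No named value reversed. Robust moderation and a lane term at 4 weeks moved no count. The main fit did not pair the samples by replicate number. Same-numbered pairs had a mean correlation of 0.0125 after group means were taken out, with 19 of 60 above 0.1. At 4 weeks the mean was 0.136 for CAC and NCAC, against -0.0340 for other pairs, so pairing in that week is uncertain. No subunit ratio was called under the values as given, where a single shifted ratio could not have been called. Depth limits Gabrr2, at about 29.6 reads per TPM, more than the abundant members.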
